A study of Caenorhabditis elegans with 6 samples.

Results

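The response of Caenorhabditis elegans to a change of bacterial food was compared between worms carrying unk59, an allele of scav-4, and wild-type worms. The quantity described is a difference of differences, here called the interaction: the log2 change between the JUb74 and OP50 diets in unk59 minus the same change in wild type. It uses 4 of the 6 samples of the series and 8 of its gene count tables, and it was tested in 15950 of 46778 listed genes. A positive interaction means a more positive diet change in unk59 than in wild type, and a negative interaction the reverse.

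Whole worms at the L4 larval stage, the last before adulthood, were sequenced as paired reads of 100 bases. The groups were unk59 (strain CGZ413) on Microbacterium sp. JUb74, unk59 on Escherichia coli OP50, wild type (N2) on JUb74 and wild type on OP50, each with 2 libraries and each fed its bacteria from the L1 stage. OP50 is the usual laboratory food, and the series title describes the Microbacterium food as rich in branched-chain fatty acids. unk59 was represented by 1 strain, and its lesion is not given in the sources used here. Separate worm cultures for the libraries of a group are not stated there either, so the p-values below measure the spread between libraries, which may be partly technical. In bulk worms, fewer cells of a type and less RNA per cell cannot be told apart.

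scav-4 encodes a membrane protein of the CD36 family of scavenger receptors, which in mammals bind and take up lipids. During the L4 stage the hermaphrodite gonad first makes sperm and then switches to oocytes, while the epidermis builds the adult cuticle and, at the final moult, sheds the larval one. Moulting genes and collagens are transcribed in waves within each larval stage, and yolk proteins, the vitellogenins, are made by the adult intestine. Their levels depend on age within the stage. The age in hours, the time of harvest within L4 and any body measure of stage were not given in the sources used here, and the part of age in the results was not tested.

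Depth hardly varied, with 21937088 to 22692632 read pairs assigned to genes per library. The number of genes with a read was between 17493 and 19558. Libraries of a group differed more than counting noise, with a heterogeneity chi-square per degree of freedom of 28.3 for unk59 on JUb74, 63.9 for unk59 on OP50, 62.997 for wild type on JUb74 and 19.8 for wild type on OP50. The unk59 OP50 libraries stood apart from each other in yolk and adult cuticle genes. vit-6, a vitellogenin, had 41.2 CPM (read counts relative to the TMM-scaled library size) in library 1 and 2639.6 CPM in library 2, and bli-6, a collagen, had 62.0 and 803 CPM. Results that rest on such genes are given with the values of each library.

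scav-4 itself (chromosome X, 12981775 to 12985868 in WBcel235) had 38.1 and 31.2 CPM in unk59 on JUb74, 39.3 and 38.3 CPM in unk59 on OP50, 33.1 and 9.93 CPM in wild type on JUb74 and 47.3 and 36.1 CPM in wild type on OP50. Library 2 of wild type on JUb74 lay well below the others, and the groups overlapped. The interaction was 0.80 ± 0.61 (SE) with a 95% interval of -0.58 to 2.17 and did not pass the threshold (edgeR quasi-likelihood test, Benjamini-Hochberg adjusted p = 0.321). Without wild type JUb74 library 1, which leaves the low library alone in its group, it passed at 1.91. Counts over the whole gene do not check the allele, whose position in the transcript is not given in the sources used here.

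The diet changed gene expression differently in the genotypes for 6908 genes, 43.3% of those tested, at a Benjamini-Hochberg adjusted p below 0.05 in the edgeR quasi-likelihood test. The interaction was positive for 3722 of them (23.3% of genes tested) and negative for 3186 (20%). The count of negative calls was 1893 without unk59 JUb74 library 2 and 2116 without wild type OP50 library 2. Within unk59, JUb74 raised 5343 genes (33.5%) and lowered 4202 (26.3%), whereas within wild type it raised 422 (2.65%) and lowered 1004 (6.29%). On JUb74, 5259 genes (33%) were higher and 4158 (26.1%) lower in unk59 than in wild type, against 2 genes (0.0125%), both lower in unk59, on OP50. These comparisons share libraries with the interaction and are not separate evidence for it.

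**Figure D1:**
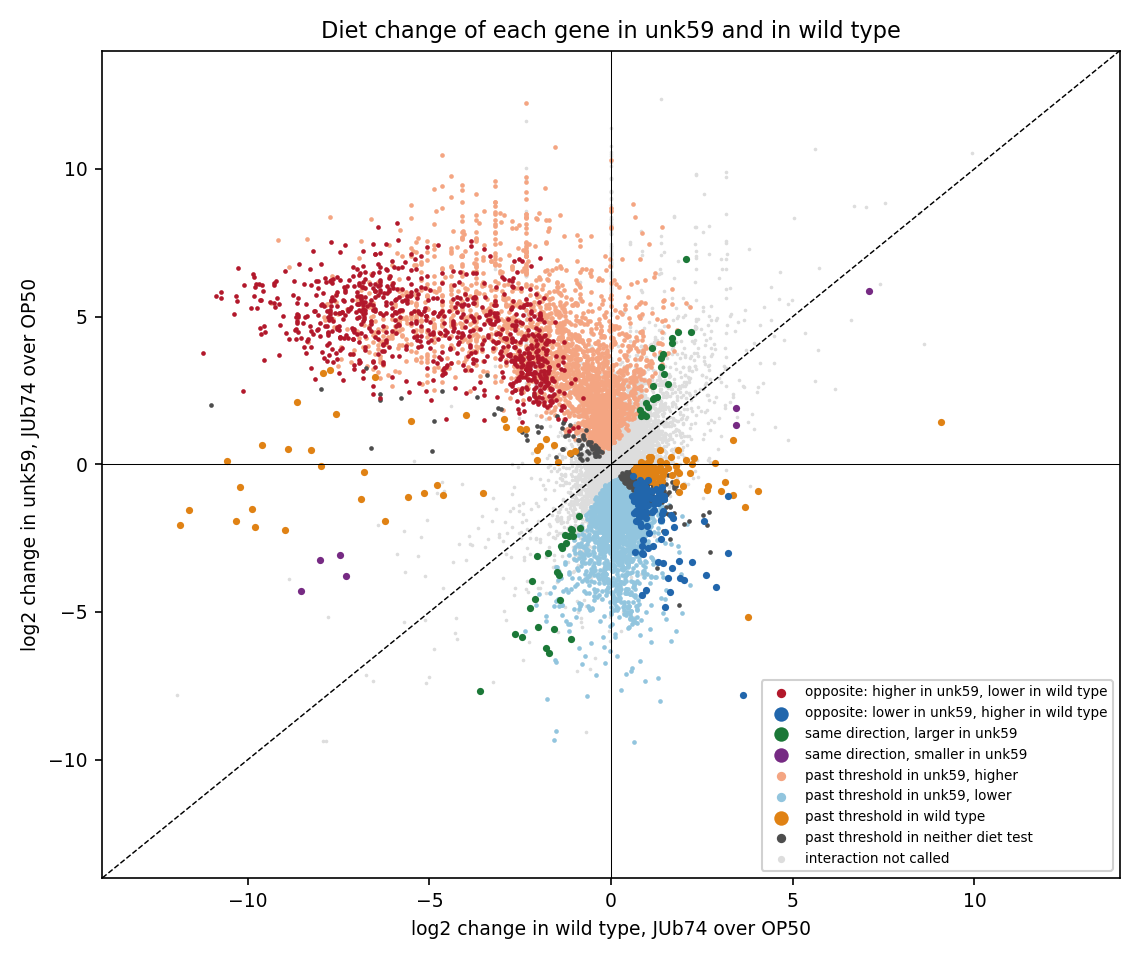
Log2 change between JUb74 and OP50 in unk59 (vertical axis) and in wild type (horizontal axis) for the 15950 genes tested, coloured by direction pattern. The 839 genes higher in unk59 and lower in wild type on JUb74 lie at the upper left, the 120 genes of the reverse pattern at the lower right, and the 54 genes with a shared direction at the upper right and lower left.

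The unk59 JUb74 libraries were the ones most often set apart. In 3562 of the 6908 genes both of them lay above all 6 other libraries, and in 2929 both lay below, together 94.0% of called genes against 67.7% of all genes tested (37.6% above and 30.1% below). The wild type JUb74 libraries lay above all others in 997 called genes and below in 1024, together 29.3% against 21.9% of genes tested (11.2% above and 10.7% below). Both JUb74 groups stood apart on opposite sides in some genes: unk59 was highest and wild type lowest in 969, or 14% of called genes against 7.84% of genes tested, and the reverse held in 855, or 12.4% against 6.85%. For the OP50 groups, unk59 stood above the others in 356 called genes (6.49% of genes tested stood so) and below in 313 (4.43%), and wild type above in 87 (2.71%) and below in 97 (5.4%).

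Called genes were divided by whether each genotype's own diet change passed the threshold and by its direction. In 2747 genes (17.2% of genes tested) JUb74 raised the gene in unk59 while the change in wild type did not pass, and in 2715 (17%) it lowered the gene in unk59 alone by that criterion. JUb74 raised the gene in unk59 and lowered it in wild type in 839 genes (5.26%), and did the opposite in 120 (0.752%). In 54 genes the direction was shared, with the larger change in unk59 in 47 (0.295%) and in wild type in 7 (0.0439%). The change passed in wild type and not in unk59 in 117 genes (0.734%), and in neither genotype by itself in 316 (1.98%). The 839 became 338 and 199 without unk59 JUb74 library 1 or 2, 84 and 13 without wild type JUb74 library 1 or 2, and 8 and 3 without wild type OP50 library 1 or 2. The 120 became 44 and 7, 28 and 1, and 0 and 0 without the same libraries. These patterns need 3 tests to pass, the diet test within wild type among them. By sign alone, without asking that each diet change passed, the diet changes of called genes were opposed in 3240 genes higher in unk59 and 2438 lower in unk59, and alike in 1230.

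**Figure D2:**
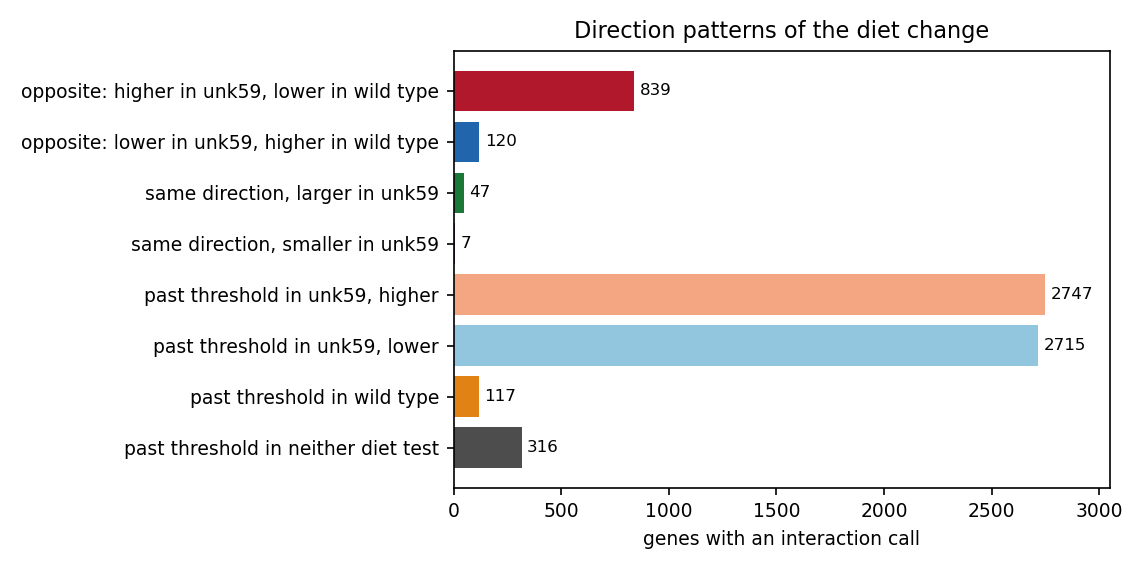
Number of genes in each of the 8 direction patterns among the 6908 genes past the interaction threshold. The patterns in which the diet change passed in unk59 and not in wild type hold 2747 and 2715 genes, against 117 for the reverse.

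The 839 genes higher in unk59 and lower in wild type on JUb74 had a median interaction of 9.43 on the log2 scale and median diet changes of 4.56 in unk59 and -4.65 in wild type. In 496 of these genes at least 1 group had 3 counts or fewer in both libraries, so that the fitted value depends on the prior count, and with those groups set to 3 counts the median was 7.18. The median level per library was 10.9 and 12.3 CPM in unk59 on JUb74, 0.102 and 0.716 CPM in unk59 on OP50, 0.0481 and 0.0425 CPM in wild type on JUb74 and 1.83 and 1.76 CPM in wild type on OP50. Of the 839, unk59 JUb74 stood above all other libraries in 797 (95%) and wild type JUb74 below in 407 (48.5%). Over all genes tested these shares were 37.6% and 10.7%. The pattern was called on these same libraries, so these counts are not separate evidence for it. unk59 OP50 library 1 was below library 2 in 633 of the 839 (75.4%).

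htp-1 (chromosome IV, 5390189 to 5391557), a HORMA-domain protein of the meiotic chromosome axis, showed this pattern, with 39.0 and 44.5 CPM in unk59 on JUb74, 2.49 and 2.24 CPM in unk59 on OP50, 1.01 and 1.66 CPM in wild type on JUb74 and 8.71 and 9.001 CPM in wild type on OP50. The libraries of each group lay close together, unk59 JUb74 above and wild type JUb74 below all others. The interaction was 6.86 ± 0.39 (SE) with diet changes of 4.14 in unk59 and -2.72 in wild type (edgeR quasi-likelihood test, Benjamini-Hochberg adjusted p = 7.72e-05 for the interaction). inx-8 (chromosome IV, 11673843 to 11675635), an innexin of the gonadal sheath that couples it to germ cells, had 72.1 and 90.7 CPM in unk59 on JUb74, 1.01 and 2.20 CPM in unk59 on OP50, 0.336 and 0.212 CPM in wild type on JUb74 and 5.13 and 5.31 CPM in wild type on OP50. Its groups did not overlap between diets in either genotype, and the interaction was 9.89 ± 0.60 (edgeR quasi-likelihood test, Benjamini-Hochberg adjusted p = 7.72e-05). clec-88 (chromosome II, 6365722 to 6367002), a gene of the C-type lectin family, had 80.2 and 142.05 CPM in unk59 on JUb74, 0.660 and 1.098 CPM in unk59 on OP50, 0.384 and 0.722 CPM in wild type on JUb74 and 2.15 and 2.25 CPM in wild type on OP50. unk59 on JUb74 was far above the rest, and the interaction was 8.93 ± 0.56. The gene overlaps ctsa-4.1 in position, so reads of the pair may not be separable.

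Meiotic genes had positive interactions almost throughout. Among 29 tested genes of the meiotic chromosome axis and recombination, 27 had a positive called interaction, against 23.3% of all genes, with a median of 5.28 beside -0.0046 over all genes tested. Median diet changes were 3.28 in unk59 and -1.66 in wild type. htp-2 (a paralogue of htp-1), him-3 (another axis protein) and syp-2 (synaptonemal complex) had interactions of 7.46, 6.83 and 5.42. spo-11, the enzyme that makes meiotic double-strand breaks, had 35.1 and 27.7 CPM in unk59 on JUb74, 0.507 and 0.620 CPM in unk59 on OP50, 0.336 and 0.849 CPM in wild type on JUb74 and 1.79 and 1.49 CPM in wild type on OP50. It was raised in unk59 by 5.78 and its wild type change of -1.43 did not pass the threshold. rad-51, the strand-exchange protein, and him-17 were not called, with interactions of 1.29 and 0.55 and 95% intervals of 0.20 to 2.38 and -0.19 to 1.29; rad-51 passed under 7 of 16 alternatives, DESeq2 and the omission of unk59 JUb74 library 1 among them.

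Germ cell RNA regulators and P granule genes followed, with 23 of 28 (82.1%) called positive, against 23.3% of all genes. Their median interaction was 5.43 (5.26 with floor groups at 3 counts). gld-1, an RNA-binding repressor of germline translation, had 141 and 259.5 CPM in unk59 on JUb74, 12.3 and 6.73 CPM in unk59 on OP50, 5.81 and 11.2 CPM in wild type on JUb74 and 57.7 and 59.0 CPM in wild type on OP50. Both unk59 JUb74 libraries were highest and wild type OP50 was next, with the remaining groups together at the bottom. Its interaction was 7.17 ± 0.77 (edgeR quasi-likelihood test, Benjamini-Hochberg adjusted p = 0.000189). glh-1, a P granule helicase, had 92.1 and 132 CPM in unk59 on JUb74, 40.1 and 14.3 CPM in unk59 on OP50, 17.1 and 29.3 CPM in wild type on JUb74 and 112 and 138 CPM in wild type on OP50, so that unk59 on JUb74 and wild type on OP50 overlapped. pgl-1 and pgl-3, P granule scaffold proteins, had interactions of 5.55 and 6.53. glp-1, the germline Notch receptor, nos-3 and gld-2 were not called by edgeR, at 1.595, 0.99 and -0.58, although DESeq2 called glp-1 and nos-3, and in edgeR glp-1 passed without wild type JUb74 library 2 and nos-3 without unk59 OP50 library 1, without the unk49 libraries and with at least 10 reads in every library. All 10 germ cell markers were called positive. Of these, csr-1 lost its call with the library number as a replicate block and when any 1 library was left out. The summed level of the markers was 674 and 1029 CPM in unk59 on JUb74 and 211 and 150.1 CPM in unk59 on OP50. It was 189.7 and 234 CPM in wild type on JUb74 and 518 and 612 CPM in wild type on OP50. The part of these markers in the result was not tested.

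Sperm genes had large positive interactions. All 29 tested major sperm protein genes, which build the sperm cytoskeleton, had a positive called interaction, with a median of 13.34, or 10.86 with floor groups at 3 counts, and 28 of them had such a group. These genes are near-identical, and reads mapping to several places were left out, so the share of each copy is uncertain. Of 57 other spermatogenesis genes, 50 (87.7%) were called positive, against 23.3% of all genes. Their median diet changes were 5.20 in unk59 and -4.10 in wild type. In 36 of the 57 a group was at the floor. The median interaction of 9.86 became 6.95 with floor groups at 3 counts. gsp-4, a sperm protein phosphatase, had 47.7 and 49.2 CPM in unk59 on JUb74, 0.254 and 1.57 CPM in unk59 on OP50, 0.0481 and 0.170 CPM in wild type on JUb74 and 5.22 and 5.63 CPM in wild type on OP50. Both unk59 JUb74 libraries exceeded every other library. The unk59 OP50 libraries differed from each other, and wild type on JUb74 was lowest. Summed sperm markers were 267 and 258 CPM in unk59 on JUb74, 1.52 and 10.5 CPM in unk59 on OP50, 0.673 and 1.36 CPM in wild type on JUb74 and 25.7 and 24.8 CPM in wild type on OP50, with 9 of 10 called positive, and msp-3, msp-142, peel-1, ssp-19 and spe-38 were at 0 in wild type on JUb74. Whether these markers account for other changes was not tested.

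Oocyte genes differed mainly through unk59 on JUb74. Of 26 oocyte maturation and eggshell genes, 22 (84.6%) were called positive, against 23.3% of all genes. Their median diet changes were 5.66 in unk59 and -2.27 in wild type. cpg-2, an eggshell chondroitin proteoglycan, had 198 and 461 CPM in unk59 on JUb74, 2.59 and 3.01 CPM in unk59 on OP50, 1.39 and 2.25 CPM in wild type on JUb74 and 11.9 and 11.5 CPM in wild type on OP50. unk59 on JUb74 was above all other libraries, and wild type on OP50 above the remaining ones. egg-1, an oocyte receptor for sperm, and pos-1, a maternal RNA-binding protein, had interactions of 10.38 and 9.48. lin-41, which blocks early oocyte maturation and also acts in developmental timing, went the other way at -2.51 ± 0.81 (edgeR quasi-likelihood test, Benjamini-Hochberg adjusted p = 0.0316), and the call was lost without any 1 library other than unk59 JUb74 library 2 or unk59 OP50 library 2. Summed oocyte markers were 854 and 2030.2 CPM in unk59 on JUb74, 121 and 73.3 CPM in unk59 on OP50, 215 and 258 CPM in wild type on JUb74 and 149 and 158 CPM in wild type on OP50. All 5 ule genes, secreted proteins of the uterine lumen, were called positive, and ule-3 had 1118 and 772 CPM in unk59 on JUb74, 0.355 and 7.54 CPM in unk59 on OP50, 0.336 and 0.212 CPM in wild type on JUb74 and 5.09 and 4.23 CPM in wild type on OP50. Summed vulva and uterus markers, which include ule genes, were 4002 and 2695 CPM in unk59 on JUb74, 149 and 172 CPM in unk59 on OP50, 186 and 159 CPM in wild type on JUb74 and 164 and 143 CPM in wild type on OP50; 6 of 10 were called positive and 2 negative, and ule-2 and ule-5 were at 0 in wild type on JUb74. The part of any of these markers in the result was not tested.

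Of 27 DNA replication genes tested, 9 were called positive (6 to 13 without 1 library), with a median interaction of 0.94. Their positive share was 33.3%, against 23.3% of all genes. orc-5 and rfc-4, of the origin recognition and clamp loader complexes, had interactions of 2.56 and 2.07. Among the mitochondrial respiratory chain genes, 4 of 42 were called, all positive. Both shares were below those of all genes, 9.52% against 23.3% positive and 0% against 20% negative. The called genes were ucr-2.3 at 5.14, asb-1, an ATP synthase subunit enriched in the germline, at 2.28, sdha-2 at 3.30 and cyc-2.2 at 13.41. cyc-2.2 was at 0 in wild type on JUb74, so its fitted size depends on the prior count. Under the alternatives that tested it the size lay between 12.46 and 20.2. The median over the 42 was -0.084, and in 28 of them the 95% interval lay within 1 log2 unit of no difference.

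**Figure D3:**
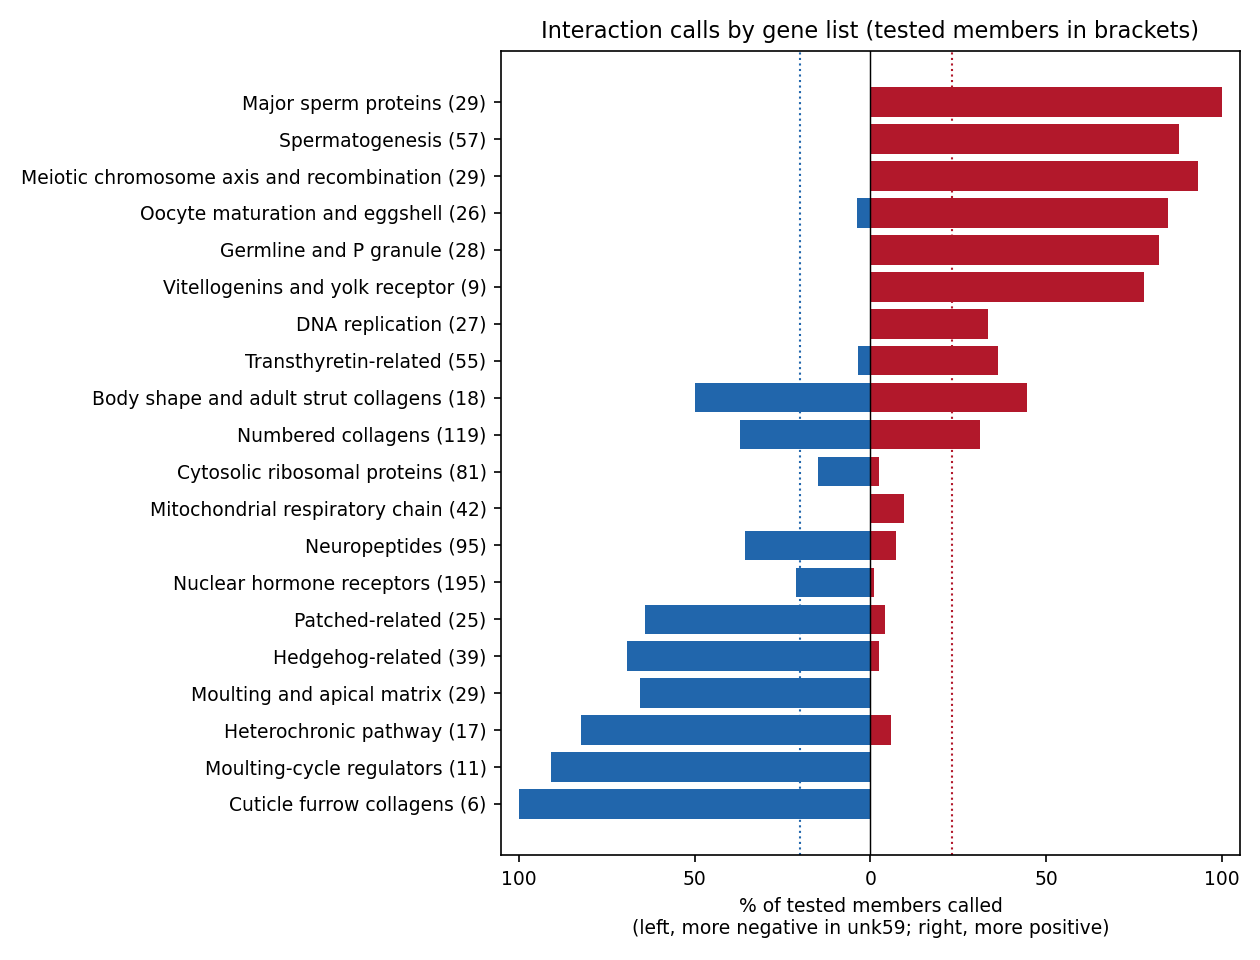
Percent of tested genes called with a positive or a negative interaction in 20 gene lists, with dotted lines at 23.3% and 20% for all genes tested. Meiotic, germline, sperm, oocyte and yolk lists lie on the positive side, and moulting, furrow collagen, heterochronic, hedgehog-related and patched-related lists on the negative side.

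The yolk protein genes vit-2, vit-5 and vit-6 fell in wild type on JUb74 and did not change by a passing amount in unk59. vit-6 had 6990.4 and 4563 CPM in unk59 on JUb74, 41.2 and 2639.6 CPM in unk59 on OP50, 6.25 and 2.04 CPM in wild type on JUb74 and 2280.2 and 1005 CPM in wild type on OP50. Wild type libraries did not overlap between diets, whereas in unk59 library 1 on OP50 was far below library 2. The diet changes were 2.11 in unk59 and -8.64 in wild type, of which the wild type change passed the threshold, and the interaction was 10.74 ± 2.24 (edgeR quasi-likelihood test, Benjamini-Hochberg adjusted p = 0.00525). vit-2 had 6871 and 4468 CPM in unk59 on JUb74, 10.2 and 1239.8 CPM in unk59 on OP50, 5.96 and 1.23 CPM in wild type on JUb74 and 1058 and 467 CPM in wild type on OP50, and vit-5 had 592 and 365 CPM in unk59 on JUb74, 2.84 and 605 CPM in unk59 on OP50, 0.577 and 0.212 CPM in wild type on JUb74 and 392 and 223 CPM in wild type on OP50. Their levels showed the same split between the unk59 OP50 libraries. Over all genes tested, 23.3% were called positive. Of 9 genes of the vitellogenin and yolk receptor list, 7 were called positive, which fell to 3 without wild type JUb74 library 1 and 1 without library 2. Without wild type JUb74 library 2 vit-6 lost its call, with an adjusted p of 0.0514 (edgeR quasi-likelihood test, Benjamini-Hochberg), and vit-2 and vit-5 lost theirs without either wild type JUb74 library. rme-2, the oocyte yolk receptor, instead changed in unk59, with 38.4 and 109 CPM in unk59 on JUb74, 0.913 and 0.477 CPM in unk59 on OP50, 0.625 and 1.15 CPM in wild type on JUb74 and 5.45 and 6.48 CPM in wild type on OP50. ceh-60 and unc-62, transcription factors that regulate vitellogenins, were not called, at 1.47 and -0.65, although ceh-60 passed without wild type JUb74 library 1.

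Opposed genes of the other kind, 120 lower in unk59 and higher in wild type on JUb74, had a median interaction of -2.33, with median diet changes of -1.29 in unk59 and 0.94 in wild type. Their median level per library was 8.63 and 8.75 CPM in unk59 on JUb74, 28.3 and 25.3 CPM in unk59 on OP50, 39.0 and 42.3 CPM in wild type on JUb74 and 21.2 and 21.2 CPM in wild type on OP50. unk59 JUb74 stood below all other libraries in 111 of them (92.5%) and wild type JUb74 above in 103 (85.8%). Over all genes tested these shares were 30.1% and 11.2%. The pattern was called on these same libraries, so these counts are not separate evidence for it. ptr-25 (chromosome III, 10488124 to 10500239), a patched-related membrane protein, had 6.08 and 5.75 CPM in unk59 on JUb74, 43.6 and 40.9 CPM in unk59 on OP50, 76.3 and 92.4 CPM in wild type on JUb74 and 38.8 and 44.3 CPM in wild type on OP50. The groups on OP50 overlapped, and the groups on JUb74 lay on opposite sides of them. Its interaction was -3.86 ± 0.26 with diet changes of -2.84 in unk59 and 1.02 in wild type (edgeR quasi-likelihood test, Benjamini-Hochberg adjusted p = 7.72e-05). fmi-1 (chromosome V, 13019061 to 13033401), a flamingo-type cadherin that acts in axon guidance, had 4.07 and 4.02 CPM in unk59 on JUb74, 29.5 and 25.2 CPM in unk59 on OP50, 49.1 and 45.9 CPM in wild type on JUb74 and 26.8 and 25.8 CPM in wild type on OP50, and nhr-91 (chromosome X, 15309369 to 15314899), a nuclear hormone receptor gene, had 8.01 and 6.82 CPM in unk59 on JUb74, 40.2 and 34.3 CPM in unk59 on OP50, 64.6 and 70.6 CPM in wild type on JUb74 and 30.1 and 35.8 CPM in wild type on OP50. Both were lowest in unk59 on JUb74 and highest in wild type on JUb74, with interactions of -3.61 ± 0.26 and -3.37 ± 0.26 (edgeR quasi-likelihood test, Benjamini-Hochberg adjusted p = 7.82e-05 and 0.000114); nhr-91 overlaps glb-28.

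**Figure D4:**
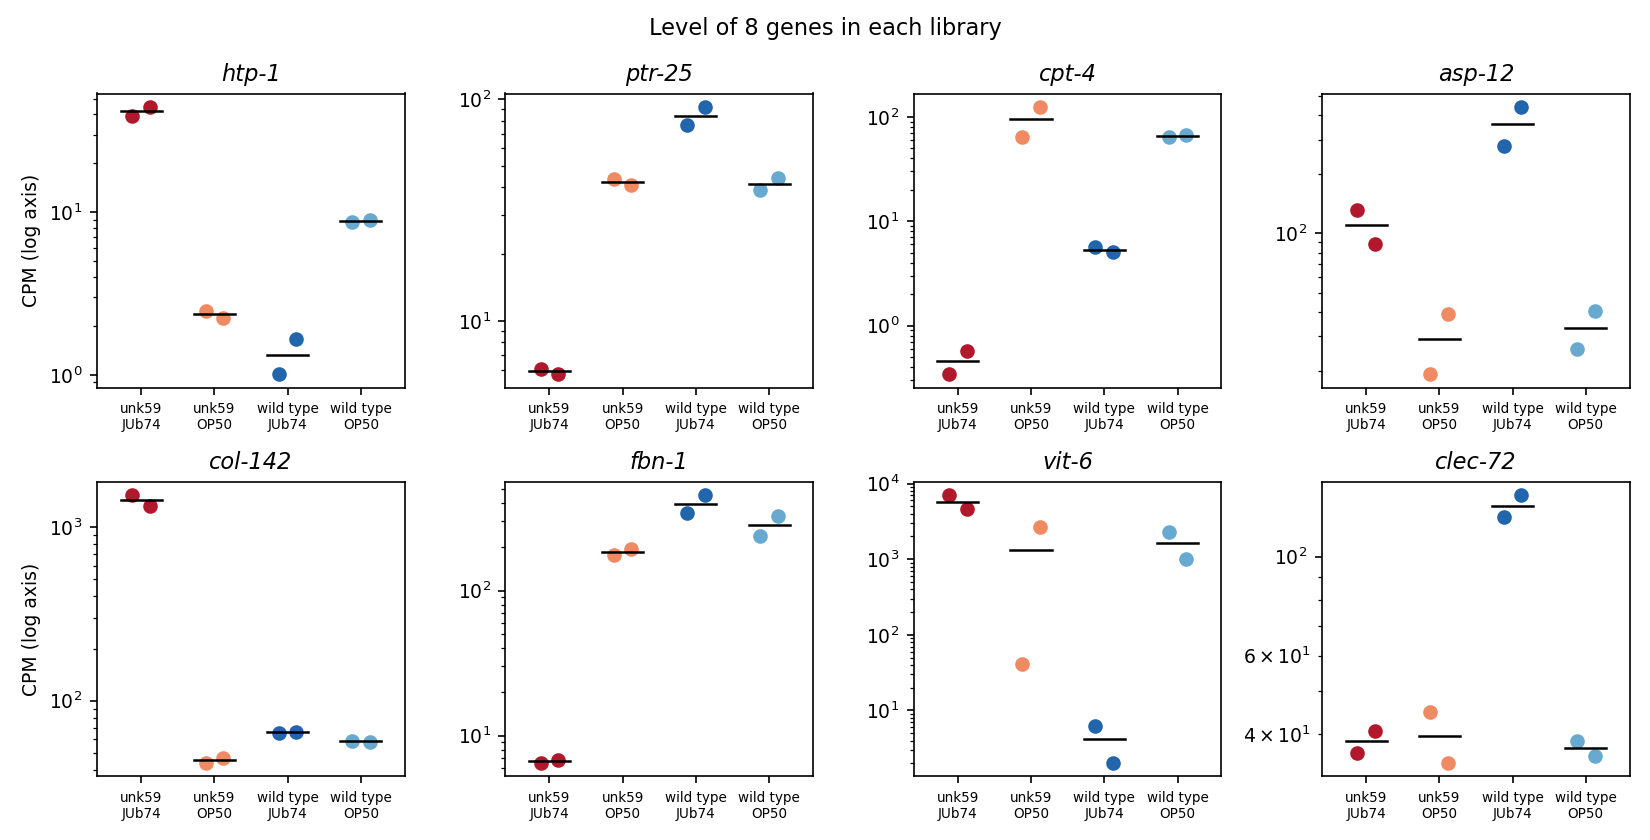
CPM in each library (dots) with the group mean (bar) on a log axis for htp-1, ptr-25, cpt-4, asp-12, col-142, fbn-1, vit-6 and clec-72, chosen to show different patterns. htp-1 is highest and ptr-25 lowest in unk59 on JUb74, and wild type on JUb74 is at the opposite end of both.

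Moulting-cycle genes were lower in unk59 on JUb74. Of 11 tested regulators, 10 had a negative called interaction, against 20% of all genes, with a median of -2.89 and median diet changes of -2.20 in unk59 and 0.58 in wild type. blmp-1 (chromosome I, 10409302 to 10414773), a zinc-finger repressor that times larval gene waves, had 18.9 and 20.0 CPM in unk59 on JUb74, 139 and 144 CPM in unk59 on OP50, 186 and 183 CPM in wild type on JUb74 and 145 and 152 CPM in wild type on OP50. It was several-fold lower in unk59 on JUb74 than in any other group, with an interaction of -3.18 ± 0.21 (edgeR quasi-likelihood test, Benjamini-Hochberg adjusted p = 7.72e-05). nhr-25, a nuclear receptor needed for moulting, had 4.92 and 5.79 CPM in unk59 on JUb74, 69.7 and 37.5 CPM in unk59 on OP50, 81.3 and 62.3 CPM in wild type on JUb74 and 30.7 and 28.2 CPM in wild type on OP50, which put wild type on JUb74 and unk59 on OP50 in overlap. lin-42, the Period homologue, had 14.6 and 30.96 CPM in unk59 on JUb74, 464 and 488 CPM in unk59 on OP50, 599 and 683 CPM in wild type on JUb74 and 463 and 424 CPM in wild type on OP50, and nhr-23, the receptor that drives the moulting cycle, had interaction -2.56 ± 0.54. Both were lower in unk59 on JUb74 than in every other group. elt-3, an epidermal GATA factor, was not called at -0.37 (-0.92 to 0.19).

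Genes of the moult and the apical matrix that covers the epidermis followed, with 19 of 29 (65.5%) called negative, against 20% of all genes. fbn-1 (chromosome III, 7625386 to 7641078), a fibrillin-like matrix protein, had 6.51 and 6.82 CPM in unk59 on JUb74, 177 and 195 CPM in unk59 on OP50, 341 and 453 CPM in wild type on JUb74 and 236 and 326 CPM in wild type on OP50. Its unk59 JUb74 libraries lay far below all others, at an interaction of -5.30 ± 0.34 (edgeR quasi-likelihood test, Benjamini-Hochberg adjusted p = 7.72e-05). noah-1 and noah-2, matrix proteins of the larval cuticle precursor, had interactions of -5.98 and -5.64, and mlt-11, a protease inhibitor needed to moult, -5.98. nas-37, a metalloprotease that opens the old cuticle, mlt-4 and bli-5 did not pass, at -0.60, -0.069 and 0.18. All 6 furrow collagens, dpy-2, dpy-3, dpy-7, dpy-8, dpy-9 and dpy-10, were called negative with a median of -5.43. dpy-7 had 2.40 and 5.38 CPM in unk59 on JUb74, 115.5 and 119.8 CPM in unk59 on OP50, 138 and 223 CPM in wild type on JUb74 and 98.6 and 119.9 CPM in wild type on OP50, lower in unk59 on JUb74 and highest in wild type on JUb74. Hypodermis and seam markers, which overlap these lists in dpy-7 and wrt-2, had 7 of 9 called negative and 1 positive, and their summed level was 582.04 and 697 CPM in unk59 on JUb74, 3764 and 2553 CPM in unk59 on OP50, 4234 and 2604 CPM in wild type on JUb74 and 2221 and 2357 CPM in wild type on OP50. Their part in the result was not tested.

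Other collagens split by direction. Of the numbered col genes tested, 37 (31.1%) were called positive and 44 (37%) negative, against 23.3% and 20% of all genes, and of 18 body shape and strut collagens, 8 positive and 9 negative. The 8 became 3 without either wild type JUb74 library and 4 and 5 without wild type OP50 library 1 or 2. col-142 (chromosome V, 6831177 to 6832256) had 1527 and 1329.5 CPM in unk59 on JUb74, 43.9 and 46.9 CPM in unk59 on OP50, 65.3 and 66.0 CPM in wild type on JUb74 and 58.7 and 58.1 CPM in wild type on OP50. It was higher in unk59 on JUb74 than in any other group, and the wild type libraries of both diets lay close together. col-101 had 1647 and 1079 CPM in unk59 on JUb74, 2.49 and 3.58 CPM in unk59 on OP50, 2.45 and 3.82 CPM in wild type on JUb74 and 2.38 and 1.76 CPM in wild type on OP50, and col-19, an adult collagen, had 3727 and 3360.1 CPM in unk59 on JUb74, 2.49 and 100.4 CPM in unk59 on OP50, 1.06 and 0.255 CPM in wild type on JUb74 and 87.6 and 40.1 CPM in wild type on OP50, high in unk59 on JUb74, with the unk59 OP50 libraries far apart. sqt-1, sqt-2, sqt-3 and rol-8, collagens that shape the body, had interactions of -4.36, -4.64, -4.05 and -4.35. In the opposite direction to these, bli-6 had 187 and 322 CPM in unk59 on JUb74, 62.0 and 803 CPM in unk59 on OP50, 0.913 and 0.170 CPM in wild type on JUb74 and 738 and 535 CPM in wild type on OP50, at an interaction of 9.46 ± 1.62 (edgeR quasi-likelihood test, Benjamini-Hochberg adjusted p = 0.002). JUb74 lowered bli-6 in wild type and not by a passing amount in unk59, and col-138 behaved alike at 8.42, though without wild type JUb74 library 1 its adjusted p was 0.0554 (edgeR quasi-likelihood test, Benjamini-Hochberg adjustment).

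Timing genes were lower in unk59 on JUb74. In the heterochronic pathway, which orders larval stages, 14 of 17 genes were called negative (9 without unk59 JUb74 library 2 or wild type OP50 library 1) and 1, lin-28, positive at 1.01, a call lost without any 1 library other than unk59 JUb74 library 1 or wild type JUb74 library 2. lin-14, a nuclear protein that specifies early fates, had 28.5 and 26.03 CPM in unk59 on JUb74, 53.8 and 47.7 CPM in unk59 on OP50, 90.4 and 84.8 CPM in wild type on JUb74 and 52.0 and 51.0 CPM in wild type on OP50. hbl-1, daf-12 and lin-46 shared its pattern of lower in unk59 and higher in wild type on JUb74, with interactions of -2.12, -1.73 and -2.54 beside -1.66 for lin-14. lin-29, which triggers the adult programme, changed in unk59 by -1.63, while its wild type change of 0.35 did not pass. Hedgehog-related genes, secreted proteins tied to the cuticle, had 27 of 39 called negative and 1 positive (2 without any 1 library other than unk59 JUb74 library 2), and patched-related genes had 16 of 25 negative and 1, ptr-13, positive, which lost its call without unk59 JUb74 library 1, unk59 OP50 library 2 or wild type OP50 library 2. wrt-10 had 2.78 and 6.57 CPM in unk59 on JUb74, 163 and 193 CPM in unk59 on OP50, 189 and 289 CPM in wild type on JUb74 and 149.95 and 184 CPM in wild type on OP50, and ptr-18 had 7.62 and 10.3 CPM in unk59 on JUb74, 108 and 113 CPM in unk59 on OP50, 107 and 111 CPM in wild type on JUb74 and 101 and 94.5 CPM in wild type on OP50. Each was lowest in unk59 on JUb74 with the other groups within 2-fold of each other. Among 195 nuclear hormone receptors, 41 were called negative and 2 positive, a negative share near the 20% of all genes and a positive share below 23.3%. The 41 became 24 without unk59 JUb74 library 2 and 26 without wild type OP50 library 2.

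Neuronal genes had more negative than positive calls. Of 11 neuron markers, 9 were called negative, against 20% of all genes. Among these, unc-64 lost its call by DESeq2 and when any 1 library was left out. The markers ric-4 and unc-13 lost theirs without unk59 JUb74 library 2, among others. Of 95 neuropeptide genes, 34 were called negative and 7 positive, against 20% and 23.3% of all genes. The neuropeptide genes had median diet changes of 0.039 in unk59 and 0.57 in wild type, with 26 of the 95 lowered in unk59 alone by the test and 6 lowered in unk59 and raised in wild type. Without wild type JUb74 library 2 the 7 became 20, and without unk59 JUb74 library 1, unk59 OP50 library 1 or wild type OP50 library 2 they became 4. egl-3, the proprotein convertase that cuts neuropeptide precursors, had 86.6 and 98.3 CPM in unk59 on JUb74, 247 and 231 CPM in unk59 on OP50, 267 and 301 CPM in wild type on JUb74 and 166 and 176 CPM in wild type on OP50. unk59 on JUb74 was lowest and wild type on JUb74 highest, with no overlap between diets in either genotype, and the interaction was -2.10 ± 0.23 (edgeR quasi-likelihood test, Benjamini-Hochberg adjusted p = 0.000203). flp-5 and flp-15, FMRFamide-like peptide genes, had interactions of -1.94 and -2.07, and ida-1, of dense-core vesicles, -2.06. snb-1, synaptobrevin, and unc-119 were not called, at -0.019 (-0.54 to 0.51) and -0.40 (-1.06 to 0.26). Summed neuron markers were 756 and 686 CPM in unk59 on JUb74, 1245 and 1188 CPM in unk59 on OP50, 1371 and 1516 CPM in wild type on JUb74 and 985 and 967 CPM in wild type on OP50, none of them at 0 in any group. Their part in the neuropeptide result was not tested, nor was that of the germ cell, sperm and oocyte markers, which take a larger share of the reads in unk59 on JUb74.

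Lipid genes did not all follow these groups. Of 6 genes of branched-chain fatty acid synthesis, 1, fasn-1 (fatty acid synthase), was called at -1.67. elo-5, an elongase of branched-chain fatty acids, was not called at 1.29 (0.06 to 2.52; edgeR quasi-likelihood test, Benjamini-Hochberg adjusted p = 0.0836), nor acs-1 at 0.45. elo-5 passed by DESeq2 and in the fit without the unk49 libraries. The delta-9 desaturases, which make oleate and palmitoleate, rose on JUb74 in both genotypes. fat-7 had 1603 and 1324 CPM in unk59 on JUb74, 137 and 181 CPM in unk59 on OP50, 1039 and 812 CPM in wild type on JUb74 and 192 and 91.4 CPM in wild type on OP50, fat-5 had 316 and 336 CPM in unk59 on JUb74, 4.46 and 2.10 CPM in unk59 on OP50, 194 and 176 CPM in wild type on JUb74 and 4.08 and 2.97 CPM in wild type on OP50, and both were higher on JUb74 than on OP50 in each genotype. Their interactions, 0.50 (-0.92 to 1.91) and 0.92 (-0.018 to 1.87), did not pass. However, fat-5 passed by DESeq2, with a strand column and without unk59 OP50 library 1. fat-6 passed at 0.69 ± 0.22 but lost the call under 6 of 16 alternatives, among them without unk59 JUb74 library 1 or 2, unk59 OP50 library 1 and wild type OP50 library 1 or 2. Of 6 polyunsaturated fatty acid genes no interaction was called in the main edgeR fit (2 by DESeq2, 2 at an unadjusted p under 0.05). The values lay between -0.27 for elo-1 and 0.82 for fat-4. Both fat-2 and fat-4 passed in edgeR with at least 10 reads in every library and with relative log expression scaling. In edgeR fat-2 also passed with the library number as a replicate block and with a strand column, and fat-4 without the unk49 libraries. Of 6 scav genes, scav-4 included, none was called in the main edgeR fit or by DESeq2 (1, scav-1 at -1.01, at an unadjusted p under 0.05). In edgeR scav-1 passed without the unk49 libraries, with no low-count filter and with a strand column. It also passed without wild type JUb74 library 2.

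Carnitine palmitoyltransferase and peroxisomal beta-oxidation genes had mostly negative calls, in 66.7% and 42.9% of those tested against 20% of all genes. Of 6 carnitine palmitoyltransferase genes, which carry fatty acids into mitochondria, 4 were called negative. cpt-4 had 0.343 and 0.575 CPM in unk59 on JUb74, 64.1 and 125 CPM in unk59 on OP50, 5.62 and 5.05 CPM in wild type on JUb74 and 63.5 and 67.2 CPM in wild type on OP50. JUb74 lowered it in both genotypes, with log2 diet changes of -7.66 in unk59 and -3.61 in wild type, and the interaction was -4.05 ± 0.56 (edgeR quasi-likelihood test, Benjamini-Hochberg adjusted p = 0.000519). cpt-6, cpt-1 and cpt-2 had interactions of -3.28, -1.47 and -1.19, the last losing its call without unk59 JUb74 library 2 or wild type OP50 library 2. Of 14 peroxisomal beta-oxidation genes 6 were negative, which became 2 without either of those libraries, and 1, acox-1.5, was positive at 3.59. acox-1.2, an acyl-CoA oxidase, had 15.2 and 12.2 CPM in unk59 on JUb74, 361 and 354 CPM in unk59 on OP50, 379 and 132 CPM in wild type on JUb74 and 549.6 and 390.1 CPM in wild type on OP50. It was lowest in unk59 on JUb74, and its interaction was -3.83 ± 0.64. Lipid droplet and triglyceride genes had a negative share near the 20% of all genes, with a median interaction of 0.20. Of 20 such genes 5 were negative (1 without unk59 JUb74 library 2; 2 without unk59 JUb74 library 1, unk59 OP50 library 2 or either wild type OP50 library) and 1, lid-1, positive. lid-1 lost its call without unk59 JUb74 library 2, unk59 OP50 library 1, wild type JUb74 library 1 or wild type OP50 library 1. acs-22 and dgat-2, of fatty acid activation and triglyceride synthesis, stood at -1.97 and -1.42, and dgat-2 lost its call without unk59 JUb74 library 2 or wild type OP50 library 1. Fatty acid binding proteins were the reverse, with 4 of 9 called positive (2 without wild type OP50 library 2), led by lbp-1 at 1.59 and lbp-2 at 1.67. That positive share was 44.4%, against 23.3% of all genes. Of 20 sphingolipid and ceramide genes, 4 (20%) were called positive and 2 (10%) negative, against 23.3% and 20% of all genes. The median interaction of this list was 0.15. Its acid ceramidases asah-1 and asah-2, among the positive calls, had interactions of 3.89 and 4.67, and sms-2 was among the negative calls. Summed intestine markers were 9726 and 7849 CPM in unk59 on JUb74, 19562 and 21465 CPM in unk59 on OP50, 25929 and 14638 CPM in wild type on JUb74 and 19291 and 16125 CPM in wild type on OP50, with 3 of 9 called negative, and their part in the lipid results was not tested.

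**Figure D5:**
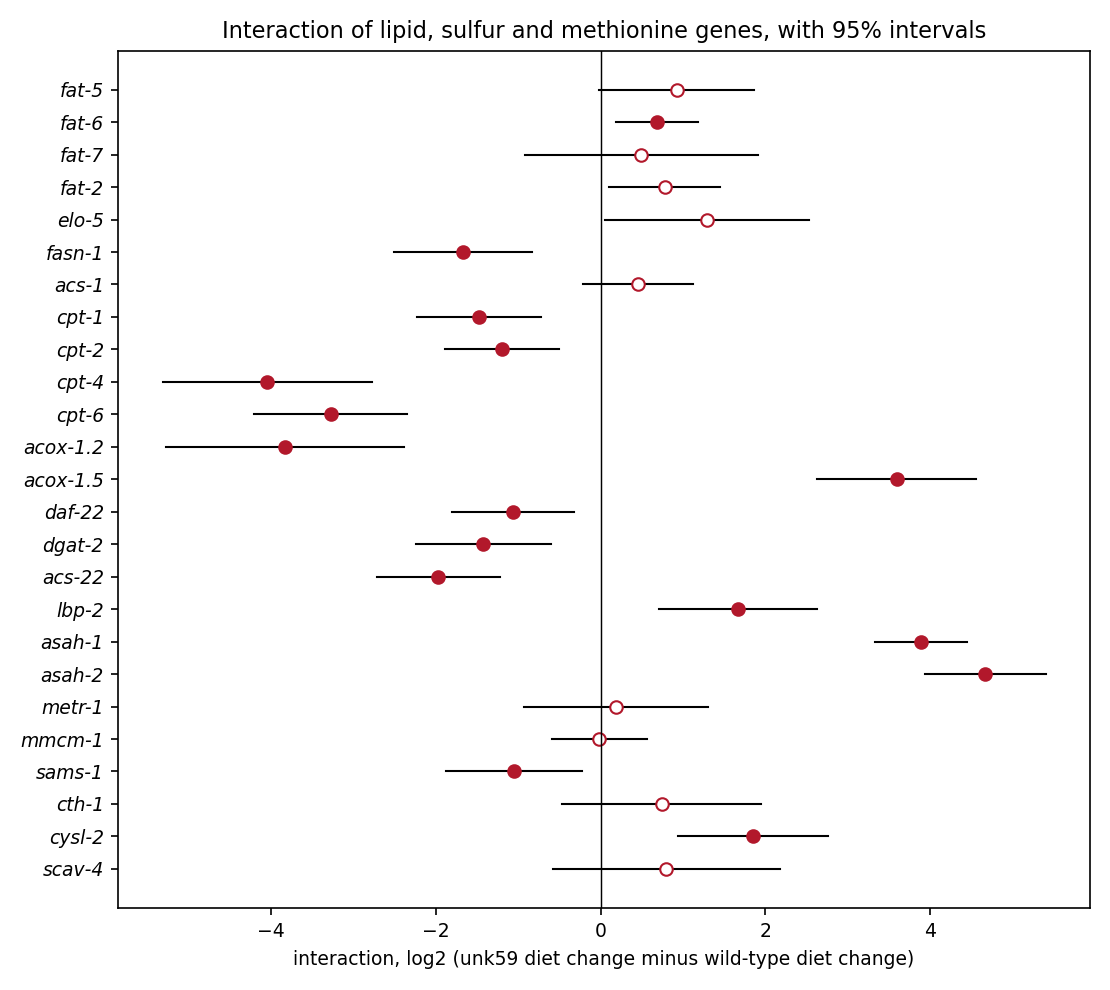
Interaction (log2) of 25 genes of lipid, sulfur and methionine metabolism, with lines for the 95% interval and filled dots for genes past the threshold. cpt-4 and acox-1.2 lie at -4.05 and -3.83, while fat-5, fat-7 and cth-1 have intervals that include 0.

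Amino acid and vitamin B12 pathways gave few calls, apart from transsulfuration and hydrogen sulfide handling. In that list 45.5% of genes were called positive, against 23.3% of all genes. In the propionate shunt, which breaks down propionate when vitamin B12 is short, none of 7 genes was called by edgeR or DESeq2, nor at an unadjusted p under 0.05. acdh-1, its first enzyme, had 2258 and 2163 CPM in unk59 on JUb74, 2046 and 1871 CPM in unk59 on OP50, 1692 and 2027 CPM in wild type on JUb74 and 1827 and 2489 CPM in wild type on OP50. Its groups overlapped, with an interaction of 0.39 and a 95% interval of -0.49 to 1.27, and in 5 of the 7 genes the interval lay within 1 log2 unit of no difference. Among 16 genes of B12 enzymes and the methionine cycle, mce-1 was called at 1.19 and sams-1, S-adenosylmethionine synthetase, at -1.05, and sams-1 lost its call under 9 of 16 alternatives, DESeq2 and the omission of any 1 library other than unk59 OP50 library 2 or wild type JUb74 library 2 among them. mce-1 lost its call without wild type OP50 library 2. In transsulfuration and hydrogen sulfide handling, 5 of 11 were called positive (3 without wild type OP50 library 2) and 1, suox-1, negative at -0.71, a call lost without any 1 of the 8 libraries. The positive ones included sqrd-1, a sulfide oxidase, at 4.402 and cysl-2, a cyanide-detoxifying cysteine synthase, at 1.85. cth-1, cystathionine gamma-lyase, was not called at 0.74 (-0.46 to 1.95) and passed without unk59 OP50 library 1. Of 13 branched-chain amino acid breakdown genes, Y44A6D.5 was called, at 7.62, and in 9 the interval lay within 1 log2 unit.

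Genes that rose or fell in both genotypes were few among the called. Of the 47 with the larger change in unk59, 21 had a positive and 26 a negative interaction. cdr-4, of a family induced by cadmium, had 571 and 533 CPM in unk59 on JUb74, 43.0 and 47.6 CPM in unk59 on OP50, 76.6 and 127 CPM in wild type on JUb74 and 42.2 and 37.0 CPM in wild type on OP50. JUb74 raised it in both genotypes, more in unk59, with an interaction of 2.24 ± 0.42 (edgeR quasi-likelihood test, Benjamini-Hochberg adjusted p = 0.00221). spp-18, a saposin-like gene, and clec-10, a C-type lectin gene, had interactions of 2.61 and 1.04, and without wild type OP50 library 1 clec-10 had an adjusted p of 0.0562 (edgeR quasi-likelihood test, Benjamini-Hochberg adjustment). idpc-1 and asp-14, an aspartyl protease gene, fell in both and further in unk59, at -4.79 and -2.31. idpc-1 overlaps sbp-1 in position. Of the 7 with the larger change in wild type, bli-1 had 7.41 and 17.1 CPM in unk59 on JUb74, 64.1 and 418 CPM in unk59 on OP50, 2.16 and 0.297 CPM in wild type on JUb74 and 417 and 472 CPM in wild type on OP50, and bli-2 had an interaction of 3.49. Both are collagens of the adult cuticle struts, and their unk59 OP50 libraries were far apart. asp-12 had 132 and 88.6 CPM in unk59 on JUb74, 19.3 and 39.2 CPM in unk59 on OP50, 279.7 and 439.9 CPM in wild type on JUb74 and 26.03 and 40.6 CPM in wild type on OP50, higher on JUb74 in both genotypes, with an interaction of -1.52 ± 0.53 (edgeR quasi-likelihood test, Benjamini-Hochberg adjusted p = 0.0441). asp-12 and bli-2 lost their calls under 11 and 8 of 16 alternatives, and bli-1 and dao-4 under 6 and 9 of the 15 that tested them. Those without unk59 JUb74 library 2, wild type JUb74 library 2 and wild type OP50 library 1 were among them for all 4 genes. asp-12 was also lost without unk59 OP50 library 2, bli-1, bli-2 and dao-4 without wild type OP50 library 2, bli-2 and dao-4 without wild type JUb74 library 1, and dao-4 without unk59 JUb74 library 1.

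A further 228 genes changed in the same direction in both genotypes without a called interaction, 152 higher and 76 lower on JUb74. Their interval was wide, with a median half-width of 1.25 log2 units, and it lay within 1 log2 unit of no difference in 33 of them, so that a difference of more than 1 log2 unit lay outside the interval for those alone. The lysozyme genes ilys-2, ilys-3 and lys-10 belong to the 152. lys-10 had 399 and 414 CPM in unk59 on JUb74, 0.203 and 0.334 CPM in unk59 on OP50, 319 and 139.7 CPM in wild type on JUb74 and 0.137 and 0.315 CPM in wild type on OP50, and ilys-3 had 155 and 275 CPM in unk59 on JUb74, 0.152 and 0.764 CPM in unk59 on OP50, 53.6 and 66.7 CPM in wild type on JUb74 and 0.321 and 0.315 CPM in wild type on OP50. Both were at most 0.764 CPM on OP50 and at least 53.6 CPM on JUb74 in each genotype, and the intervals of their interactions were -2.54 to 3.70 and -0.72 to 3.32. Without unk59 OP50 library 2 the interaction of ilys-3 passed. lys-7, another lysozyme gene, was raised in unk59 alone by the test, with 77.6 and 79.1 CPM in unk59 on JUb74, 7.001 and 2.77 CPM in unk59 on OP50, 8.65 and 13.2 CPM in wild type on JUb74 and 12.7 and 11.2 CPM in wild type on OP50 and an interaction of 4.14 ± 0.77. argk-1, arginine kinase, fell on JUb74 in both, with diet changes of -9.36 in unk59 and -7.85 in wild type and an interaction of -1.51 (-4.54 to 1.51), which passed without unk59 OP50 library 2.

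In the 117 genes whose diet change passed in wild type and not in unk59, 39 interactions were positive and 78 negative. clec-72 (chromosome IV, 3944816 to 3947362), a C-type lectin gene, had 36.4 and 40.7 CPM in unk59 on JUb74, 44.8 and 34.6 CPM in unk59 on OP50, 122.4 and 137 CPM in wild type on JUb74 and 38.7 and 35.8 CPM in wild type on OP50. Only wild type on JUb74 stood apart, above all other libraries, and the diet change in unk59 was -0.042. The interaction was -1.84 ± 0.27 (edgeR quasi-likelihood test, Benjamini-Hochberg adjusted p = 0.00066). fkh-7, a forkhead factor gene, and oac-46, an acyltransferase-family gene, also changed by a passing amount in wild type alone, with interactions of -1.82 and -1.18. Wild type JUb74 stood above all others in 71 of the 117 (60.7%) and below in 33 (28.2%), against 11.2% and 10.7% of all genes tested. Among the 316 called in neither genotype alone, 72 were positive and 244 negative. Wild type JUb74 stood above in 155 of these (49.1%), against 11.2% of all genes tested. Both patterns were called on these same libraries. haao-1, of tryptophan breakdown, and tpa-1, a protein kinase C, had interactions of 1.72 and -1.15, and haao-1 lost its call without unk59 JUb74 library 1, unk59 OP50 library 1 or wild type OP50 library 2. col-7 and col-62 had interactions of 13.02 and 8.02, with unk59 OP50 libraries at 0.152 and 32.3 CPM for col-7. col-7 was at 0 in wild type on JUb74, so its fitted size depends on the prior count. Under the alternatives that tested it the size lay between 12.04 and 19.71. col-7 and col-62 both lost their calls without either wild type JUb74 library or wild type OP50 library 1. The call of col-7 was also lost without wild type OP50 library 2.

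Genes that changed in unk59 alone by the test made up most of the rest. The 2747 higher had a median interaction of 3.91 (3.24 with floor groups at 3 counts), and median levels of 9.51 and 10.1 CPM in unk59 on JUb74, 0.609 and 0.859 in unk59 on OP50, 0.577 and 0.849 in wild type on JUb74 and 1.38 and 1.44 in wild type on OP50. fem-3, which promotes sperm fate in the hermaphrodite germline, had 34.9 and 36.3 CPM in unk59 on JUb74, 1.62 and 2.24 CPM in unk59 on OP50, 1.78 and 1.91 CPM in wild type on JUb74 and 2.84 and 2.93 CPM in wild type on OP50. It was raised by 4.20 in unk59 and its wild type change was -0.64. The 2715 lower had a median interaction of -1.85 and median levels of 7.58 and 7.88 CPM in unk59 on JUb74, 27.04 and 26.4 in unk59 on OP50, 27.5 and 25.5 in wild type on JUb74 and 23.7 and 23.5 in wild type on OP50. gei-13 had 9.93 and 9.94 CPM in unk59 on JUb74, 106 and 100.2 CPM in unk59 on OP50, 118 and 129.8 CPM in wild type on JUb74 and 88.5 and 90.5 CPM in wild type on OP50, lowest in unk59 on JUb74 with the other libraries between 88.5 and 129.8 CPM.

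In other gene families the shares of calls were read against the 23.3% positive and 20% negative of all genes. C-type lectins, carbohydrate-binding proteins many of which act in gut immunity, had 29 of 124 called positive and 24 negative, 23.4% and 19.4%, close to those of all genes, the 24 becoming 15 and 10 without unk59 JUb74 library 1 or 2, 15 without unk59 OP50 library 2 and 12 without wild type OP50 library 2. Transthyretin-related proteins had 20 positive and 2 negative of 55, and the 20 became 13 without wild type OP50 library 1. Among 81 cytosolic ribosomal proteins, 2 were positive and 12 negative, the 12 being 14.8% and below the share of all genes, with a median of -0.49, and in 44 the interval lay within 1 log2 unit. DESeq2 called 5 of the 81 in either direction. The 12 became 0 or 1 without unk59 JUb74 library 1 or 2, unk59 OP50 library 1 or wild type OP50 library 1 or 2, and 3 without wild type JUb74 library 1.

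Families of detoxification and stress gave shares of calls near or below the shares of all genes. Cytochromes P450, which oxidise lipids and foreign compounds, had 10 positive and 11 negative of 66, and leaving out 1 library gave 5 to 11 positive and 7 to 13 negative. UDP-glucuronosyltransferases, which conjugate such compounds, had 7 and 7 of 62, with 4 to 12 and 3 to 9 when 1 library was left out. Glutathione S-transferases had 2 positive and 7 negative of 39, with 0 to 4 and 4 to 9. Heat shock proteins and DnaJ chaperones had 8 and 6 of 51, with 4 to 7 and 0 to 4. Saposin-like proteins had 4 and 5 of 22, the 5 becoming 3 to 6, and insulin-like peptides 4 and 5 of 25, the 4 becoming 2 to 11. The upper end for the insulin-like peptides came without wild type JUb74 library 2, which left 11 positive.

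Muscle sarcomere genes had 6 of 24 negative, near the 20% of all genes, with a median interaction of -0.20, and 1 to 7 when 1 library was left out, with 1 after the omission of unk59 JUb74 library 2, unk59 OP50 library 1 or wild type OP50 library 1. Tubulins had 2 positive and 5 negative of 12, with 1 to 3 and 2 to 6. Over all genes, 23.3% were called positive and 20% negative. Of markers of other tissues, 3 of 10 for body wall muscle were called negative and the others not. These muscle calls, unc-54, unc-22 and myo-3, were lost under 13, 6 and 3 of 16 alternatives. For the pharynx 3 of 9 were positive and 1 negative. For gonadal sheath and spermatheca 5 of 9 were positive and 2 negative, and for coelomocytes 1 of 5 was positive.

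Position in the genome went with direction. Among protein-coding genes, 36.2% of those tested on the X chromosome had a negative called interaction and 10.5% a positive one (789 and 228 of 2178). On the autosomes the negative share was between 16.1% on III and 19.8% on V, and the positive share between 20% on V and 29.1% on I. Of genes with the opposed pattern higher in unk59 and lower in wild type, 21 were X-linked, 0.964% of X-linked genes tested, against 3.67% to 8.58% of genes on each autosome. Pseudogenes had 221 positive and 42 negative of 538 tested, beside 23.3% positive and 20% negative over all genes tested. Genes are not independent, so these shares are descriptions.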

How the data were processed

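RNA of whole L4 worms was sequenced in 10 libraries, 2 for each of 5 groups, of which 8 libraries enter the contrast described. The deposited values are raw read counts per gene, 1 table per library, and per the submitters' processing notes STAR 2.7.10 and DESeq2 were used with WBcel235. Tables give an unstranded count and 2 counts by strand, and the unstranded count was used. Although the labels name a strand-specific kit, genes had a median of 49.8% to 50.1% of their reads in 1 strand column, so overlapping and antisense genes cannot be separated. Summary lines that name no gene were left out: unmapped reads were 2.03% to 2.61% of a library, multimapping reads 2.28% to 3.49%, reads in no feature 0.382% to 0.537% and ambiguous reads 1.72% to 1.85%. Of the count tables, 1 was not used, and unk49 on JUb74 was not analysed here.

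Counts were fitted with edgeR 4.0.16 (R 4.3.3, limma 3.58.1), using TMM scaling, filterByExpr and robust quasi-likelihood dispersions, in 1 model of 5 groups and 10 libraries that includes 2 unk49 libraries on OP50. The interaction contrast was tested over 15950 genes with Benjamini-Hochberg adjustment and a threshold of 0.05, and 95% intervals were taken from the same fit. The common biological coefficient of variation was 23.4%. A group with 3 counts or fewer in both libraries was treated as at the floor. Simulated counts were made for 15563 genes with 200 of them changed. There the fit recovered 8% of changes of log2 size 1 and 83% of size 2, with 2.15% false calls. It called 93 genes, against 6908 in the data, so the adjusted threshold was stricter in the simulation. The share of small interactions missed in the data was therefore not measured. Counts were drawn separately for each gene at the fitted spread. Libraries that deviate in many genes together were not simulated, so the 2.15% does not measure false calls from them. Alternatives were DESeq2 1.42.0, other scalings, other low-count filters, a strand column, the 8 libraries alone, a library-number block and leaving out each library. Calling patterns by sign alone was chosen after seeing the data.

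Of the gene IDs, 46603 of 46778 matched Ensembl release 115 of WBcel235, which gave coordinates and names. Named genes are the 3 of lowest p per pattern and direction with an absolute interaction of at least 1, a mean of at least 4 log2 CPM and a 3-letter or 4-letter gene name, without msp genes; up to 4 called members per list; members not called whose interval is given; and scav-4. Further list members are named for their known role, with their values already seen. The contrast, the 45 gene lists and the 11 marker lists were chosen with earlier results of these data known.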

Additional observations from a re-analysis of the deposited data

Results flagged for a closer look

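The diet change differed between unk59 and wild type by a test of the difference itself in 6908 genes, of which 839 rose in unk59 and fell in wild type on JUb74, and 120 did the reverse. Of the opposed genes of the first kind, htp-1, inx-8 and clec-88 had interactions of 6.86, 9.89 and 8.93 on the log2 scale. Of the second kind, ptr-25, fmi-1 and nhr-91 had interactions of -3.86, -3.61 and -3.37. The counts of opposed genes rest on the wild type diet test and varied widely when 1 library was left out.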

How the results depend on the processing

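Interaction calls numbered 6461 with the library number as a replicate block, 6847 by DESeq2, 7967 in the 8 libraries without unk49, and 4365 (2135 positive) with at least 10 reads in every library. Leaving out 1 library gave 5035 to 6439 calls, 2919 to 3900 positive and 1893 to 2669 negative, and 72.0% to 84.5% of the 6908 were still called in the same direction. The positive share, 53.9%, was 48.9% to 63.2% elsewhere, 58.9% with relative log expression scaling. Differences between library 1 and library 2 correlated between groups at -0.28 to 0.26 across genes. These values do not settle whether library numbers pair the samples, and no pairing is stated in the sources used here.

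The 839 genes higher in unk59 and lower in wild type became 160 with at least 10 reads, 335 with the block, 491 with a strand column and 3 to 1241 without 1 library. The 120 became 189 without unk49, 60 with at least 10 reads, 43 with the block and 0 to 123 without 1 library. Genes changed more in unk59 numbered 101 by DESeq2, 28 with at least 10 reads, 21 with the block and 0 to 77 without 1 library, and those changed less 4 with at least 10 reads, 2 with no filter, 2 with a strand column and 0 to 20. Genes called in wild type alone numbered 40 with at least 10 reads, 47 with the block and 0 to 146 without 1 library; in neither, 183 to 397; in unk59 alone, 1860 to 3775 higher and 1741 to 2435 lower. By sign alone, opposed genes numbered 1625 higher in unk59 with at least 10 reads and 2680 to 3602 without 1 library, 1359 to 2128 lower, and 673 to 1076 were alike.

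With at least 10 reads, unk59 JUb74 stood above in 2032 called genes, unk59 OP50 above in 174 and wild type JUb74 below in 589. In the 8 libraries without unk49, wild type OP50 stood above in 170. Without 1 library, unk59 JUb74 stood above in 2826 to 3689 and below in 1868 to 2485, unk59 OP50 above in 195 to 693 and below in 218 to 666, wild type JUb74 above in 563 to 1210 and below in 871 to 1835, and wild type OP50 above in 69 to 185 and below in 27 to 111. The cause of these shifts was not tested, apart from fewer genes tested or fewer libraries where the setting itself brings that. Of 198 called named genes, 117 stayed called under all 16 alternatives, and 40 under the 15 that tested them, the filter of at least 10 reads leaving them out; 0 changed sign; 243 of 1440 gene list counts moved by more than 1.5 times.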
